A study of Mus musculus with 8 samples.

Results

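The cell cycle was followed through 44 genes in RNA from whole aortas of 8 atherosclerotic mice. The genes were taken by symbol from a list of S phase, mitosis and cytokinesis genes, and all 44 were found among the 24411 genes of the count table. All 44 also passed the filter on low counts, which left 14679 genes to test. By textbook role, 12 of them act at the G1/S border or in DNA replication (called S phase genes here) and 32 act in G2, mitosis or cytokinesis or mark dividing cells (called mitotic genes). The 5 caIKK2EC mice had the genotype caIKK2(+/+), BMX-CreERT2(+/-) and ApoE(-/-). In these animals Cre, which is active in arterial endothelial cells only, had removed a STOP cassette in front of a constitutively active IKK2, the kinase that switches on NF-κB, and a linked EGFP. The 3 Control mice were littermates with caIKK2(+/+) and ApoE(-/-) but no Cre. Both groups had received tamoxifen (1 mg per 20 g of body weight), which makes the Cre active, and a Western-type diet for 12 weeks. In the series IKK2 was activated early or late in disease. The stage for these animals was not given in the sources used here. Each library comes from 1 mouse of 18 or 19 weeks. All mice were female except Control 3, which was also the only Control of 19 weeks.

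Cells commit to division when E2F transcription factors are released from the retinoblastoma protein and switch on genes for replication, among them the MCM helicase, PCNA and the enzymes of nucleotide supply. Genes of mitosis are switched on later, in G2, largely through promoter elements named CHR and CCAAT boxes, which are read by the MuvB complex with B-MYB and FOXM1 and by NF-Y, and the same CHR elements hold these genes silent in resting cells. In a healthy adult artery most cells rest, while plaques hold dividing macrophages and smooth muscle cells.

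Promoter sequences from RefSeq (GRCm38.p6, from 250 bases before to 50 bases after the start of the gene) were matched for 37 of the 44 genes, and no entry was matched for Ccne2, Ccna2, Aurkb, Tpx2, Mcm4, Kif20a and Foxm1. The sequences below are the 160 bases before the start of 3 mitotic and 2 replication genes, printed 5′ to 3′ on the strand of the gene. They show the CHR and CCAAT letters of a proliferation marker, a topoisomerase and a spindle motor, and the E2F letters of a pair of MCM helicase genes. The log2 fold changes of this pair were 0.43 (SE 0.13) for Mcm5 and -0.10 (SE 0.14) for Mcm6. The value of Mcm6 turned to 0.10 without Control 3. Capitals mark the letters searched. For the CHR these were TTTGAA and, as a second form, TTCGAA. For the CCAAT box they were CCAAT, which appears as ATTGG when read from the other strand. For E2F they were TTTCCCGC, TTTCGCGC, TTTGCCGC and TTTGGCGC. All were searched on both strands, so a CHR can also appear as TTCAAA. In Mcm5 and Mcm6, 1 pair of E2F matches on opposite strands overlaps and appears as a single run.
Mki67 (chr7:135716380-135716539, minus strand): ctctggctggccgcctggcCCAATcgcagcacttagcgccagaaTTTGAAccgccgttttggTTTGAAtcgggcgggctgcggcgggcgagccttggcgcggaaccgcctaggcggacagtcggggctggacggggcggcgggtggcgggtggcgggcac
Top2a (chr11:99024190-99024349, minus strand): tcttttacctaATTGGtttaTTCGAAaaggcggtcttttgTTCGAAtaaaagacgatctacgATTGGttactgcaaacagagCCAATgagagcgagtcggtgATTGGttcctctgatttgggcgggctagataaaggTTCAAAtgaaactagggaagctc
Kif11 (chr19:37376222-37376381, plus strand): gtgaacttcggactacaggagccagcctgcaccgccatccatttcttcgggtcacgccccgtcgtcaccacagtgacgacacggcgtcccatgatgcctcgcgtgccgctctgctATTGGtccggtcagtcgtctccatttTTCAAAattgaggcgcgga
Mcm5 (chr8:75109349-75109508, plus strand): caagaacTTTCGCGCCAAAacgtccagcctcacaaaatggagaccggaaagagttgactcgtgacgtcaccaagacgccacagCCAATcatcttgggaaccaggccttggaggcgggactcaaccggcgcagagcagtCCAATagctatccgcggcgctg
Mcm6 (chr1:128359706-128359865, minus strand): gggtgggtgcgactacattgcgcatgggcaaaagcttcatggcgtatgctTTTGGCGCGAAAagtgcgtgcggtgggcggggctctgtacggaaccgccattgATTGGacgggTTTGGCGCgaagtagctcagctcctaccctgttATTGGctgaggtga
Over the whole windows, CHR letters stood in 21 of 27 mitotic promoters (77.8%) and 2 of 10 S phase promoters (20.0%), against 13.7% of the 11102 tested genes with an entry. CCAAT letters stood in 20 of the 27 mitotic (74.1%) and 7 of the 10 S phase promoters (70.0%), against 38.2% of tested genes. E2F letters stood in 4 of the 10 S phase promoters (40.0%), those of Mcm3, Mcm5, Mcm6 and Mcm7, and in 1 of the 27 mitotic promoters (3.7%), that of Cdk1, against 3.84% of tested genes. Matches in Mcm7 and Ube2c also overlapped another match in 1 place each. A match describes letters in this window and does not show binding.

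Total counts were 23461655 to 30808502 per library. Column names of the count table give the 3 Controls and caIKK2EC 1 the digit 7, and caIKK2EC 2 to 5 the digit 8. This digit is taken here as the sequencing lane, which the names do not state. On that reading, lane 7 alone holds both groups. Levels are given as CPM, which scales each library's reads to the same total with TMM factors that correct for library composition. Contractile smooth muscle markers were abundant in all 8 libraries (9897 to 36299 CPM summed over 6 genes), and endothelial markers reached 1262 to 2737 CPM over 5 genes. Ikbkb, the gene of IKK2, averaged 79.7 CPM over Controls and 98.4 CPM over caIKK2EC aortas (log2 fold change 0.30, SE 0.12, edgeR adjusted p = 0.237). Over all genes, edgeR's quasi-likelihood test with Benjamini-Hochberg adjustment called 0 of 14679 at 0.05, against 659 higher and 216 lower by DESeq2.

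The log2 fold change of caIKK2EC over Control aortas was above 0 for 42 of the 44 cell cycle genes, where 47.4% of all tested genes lay above 0, with a median of 0.59 against -0.02 for all tested genes. The 2 exceptions were Mcm6, a helicase subunit, at -0.10 and Anln, which encodes the cytokinesis scaffold anillin, at -0.31. No gene of the list passed edgeR's test adjusted over all genes (0% of all tested genes either; lowest adjusted p = 0.1097, Tpx2). At an unadjusted edgeR p under 0.05, 23 of 44 were higher (9.66% of all tested genes) and 0 were lower (7.47%), made up of 7 of 12 S phase and 16 of 32 mitotic genes. DESeq2, with adjustment over all genes, called 10 of 44 higher (4.49% of all tested genes) and 0 lower (1.47%): E2f1, Mcm2, Mcm3, Mcm5, Kif2c, Tpx2, Bub1b, Ndc80, Kif23 and Mki67. The authors' deposited table has 9 of these at an adjusted p under 0.05 (3.91% of its genes, with 0 lower against 1.3%) and lists Mcm5 at 0.0507. The groups did not overlap in 11 genes, all of them higher in caIKK2EC (7.01% of all tested genes), and 0 were lower without overlap (3.22%). RNA of whole tissue cannot tell apart more cells in cycle and more of these transcripts per cell.

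**Figure D1:**
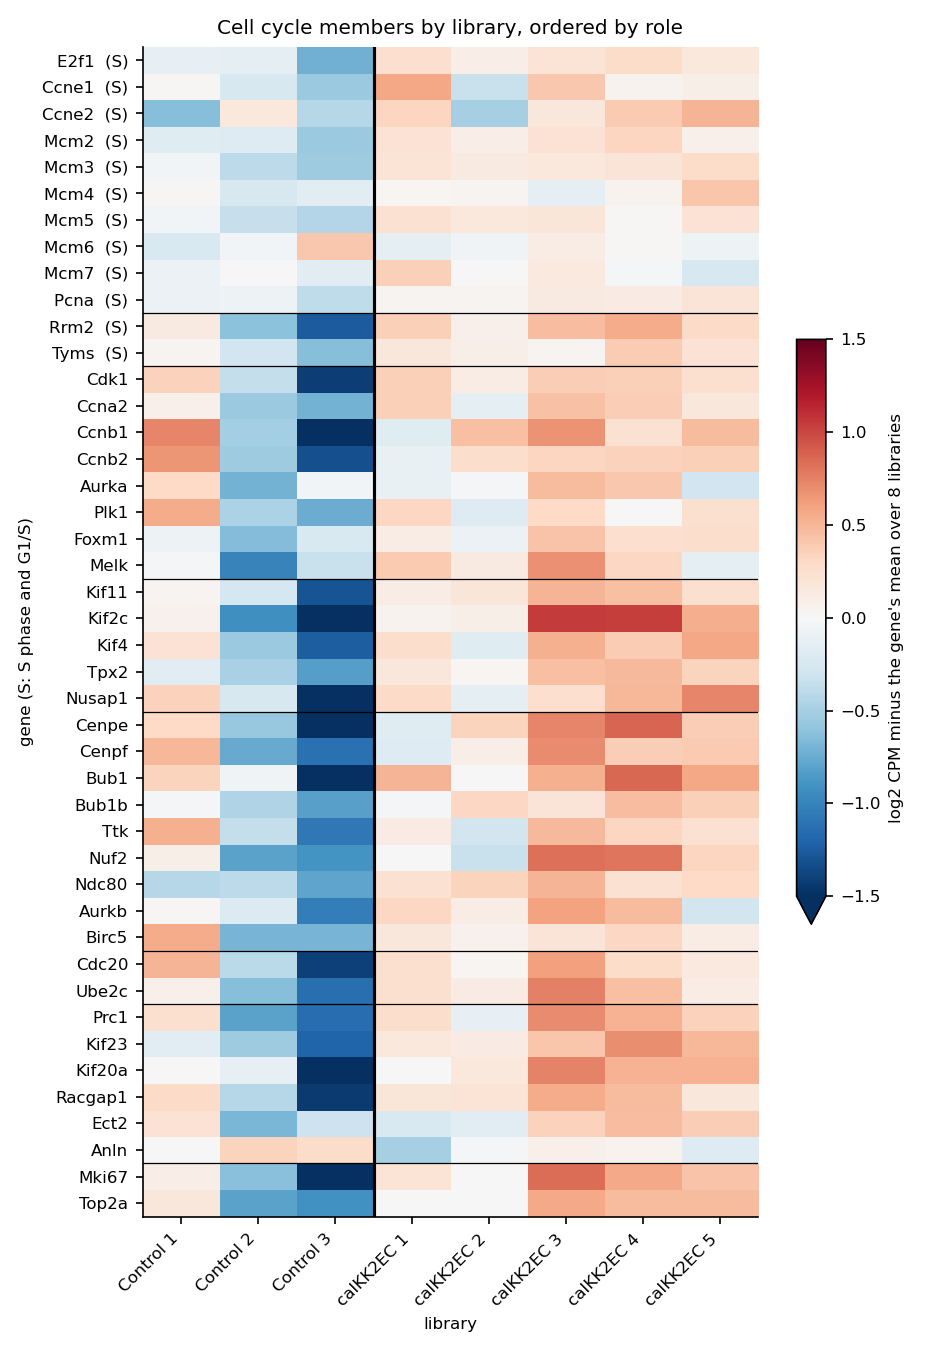
Level of each of the 44 genes (rows, ordered by role and set apart by thin lines, S marking S phase genes) in each of the 8 libraries (columns), as log2 CPM minus the mean of the gene over all libraries, with values beyond the scale drawn in the darkest blue. Control 3 is the bluest column and Control 1 is close to the caIKK2EC libraries for most mitotic genes, while Mcm6 and Anln run against the other rows.

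Counts per role, here and below, stand beside these shares of all tested genes. At an unadjusted edgeR p under 0.05, 9.66% were higher, DESeq2 called 4.49% higher, and 7.01% were higher without overlap. Of 10 genes at the G1/S border or in licensing, 5 passed an unadjusted edgeR p under 0.05, namely E2f1, Mcm2, Mcm3, Mcm5 and Pcna, and in each of these 5 the groups did not overlap. Mcm3, a subunit of the helicase that unwinds DNA ahead of replication forks, was at 25.8, 20.2 and 18.3 CPM in Control 1 to 3 and at 30.5, 29.0, 29.7, 30.2 and 32.1 CPM in caIKK2EC 1 to 5. Its level was thus even over the 5 caIKK2EC aortas and lower in each Control (1.41-fold, log2 fold change 0.50, SE 0.13, edgeR adjusted p = 0.130, exact permutation p = 0.0357, the smallest that 3 against 5 libraries allow, two-sided). Mcm2, another subunit of the same ring, was at 17.7, 17.6 and 13.6 CPM in Control and at 23.2, 21.5, 23.3, 25.0 and 21.1 CPM in caIKK2EC (log2 fold change 0.48, SE 0.13). E2f1, the transcription factor that drives these genes, was at 14.5, 14.2 and 9.54 CPM in Control and at 18.8, 16.9, 18.2, 19.1 and 17.6 CPM in caIKK2EC (log2 fold change 0.50, SE 0.16). Control 3 was the lowest library for all 5 of these genes, and Control 1 and 2 lay close to each other for E2f1, Mcm2 and Pcna. Pcna, the sliding clamp of the replication polymerases, was at 36.9, 36.9 and 30.1 CPM in Control and at 40.4, 40.2, 43.0, 42.6 and 44.7 CPM in caIKK2EC (log2 fold change 0.28, SE 0.11). DESeq2 did not call it (adjusted p = 0.127), while it called E2f1, Mcm2, Mcm3 and Mcm5 with adjusted p-values of 0.0135 to 0.0489.

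The other helicase subunits had overlapping groups. Mcm4 and Mcm7 had log2 fold changes of 0.21 and 0.15, against 0.43 for Mcm5. Mcm6 was at 48.2, 54.8 and 74.4 CPM in Control and at 51.0, 54.1, 60.7, 56.95 and 53.1 CPM in caIKK2EC. Control 3, the lowest library for most other genes described here, was the highest for Mcm6, and the log2 fold change of -0.10 (SE 0.14) turned to 0.10 without that library. Per kilobase of exon, Pcna (14.4 ± 1.64 CPM per kb in Control, SD, n = 3) and Mcm6 (12.7 ± 2.93) had the highest levels of the list, followed by Anln (6.94 ± 0.84) and Mcm4 (6.05 ± 0.57). The lowest Control level per kilobase was that of Cenpf, at 0.319 ± 0.20. The cyclin genes Ccne1 and Ccne2, whose products activate CDK2 at the G1/S border, had few reads (40 to 157 counts per library) and log2 fold changes of 0.43 (SE 0.28) and 0.48 (SE 0.30), with overlapping groups.

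Both enzymes of nucleotide supply had an unadjusted edgeR p under 0.05, and in both Control 1 lay within the caIKK2EC range. Rrm2, the regulated subunit of ribonucleotide reductase, was at 10.4, 6.18 and 3.99 CPM in Control and at 12.2, 9.99, 13.1, 13.9 and 11.5 CPM in caIKK2EC (1.76-fold, log2 fold change 0.82, SE 0.28, edgeR adjusted p = 0.192). The 3 Controls differed among themselves by more than the 5 caIKK2EC aortas did, and without Control 3 the log2 fold change was 0.55. Tyms, which encodes thymidylate synthase, was at 7.96, 6.32 and 4.95 CPM in Control and at 8.66, 8.22, 7.94, 10.1 and 8.96 CPM in caIKK2EC (log2 fold change 0.45, and 0.30 without Control 3).

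**Figure D2:**
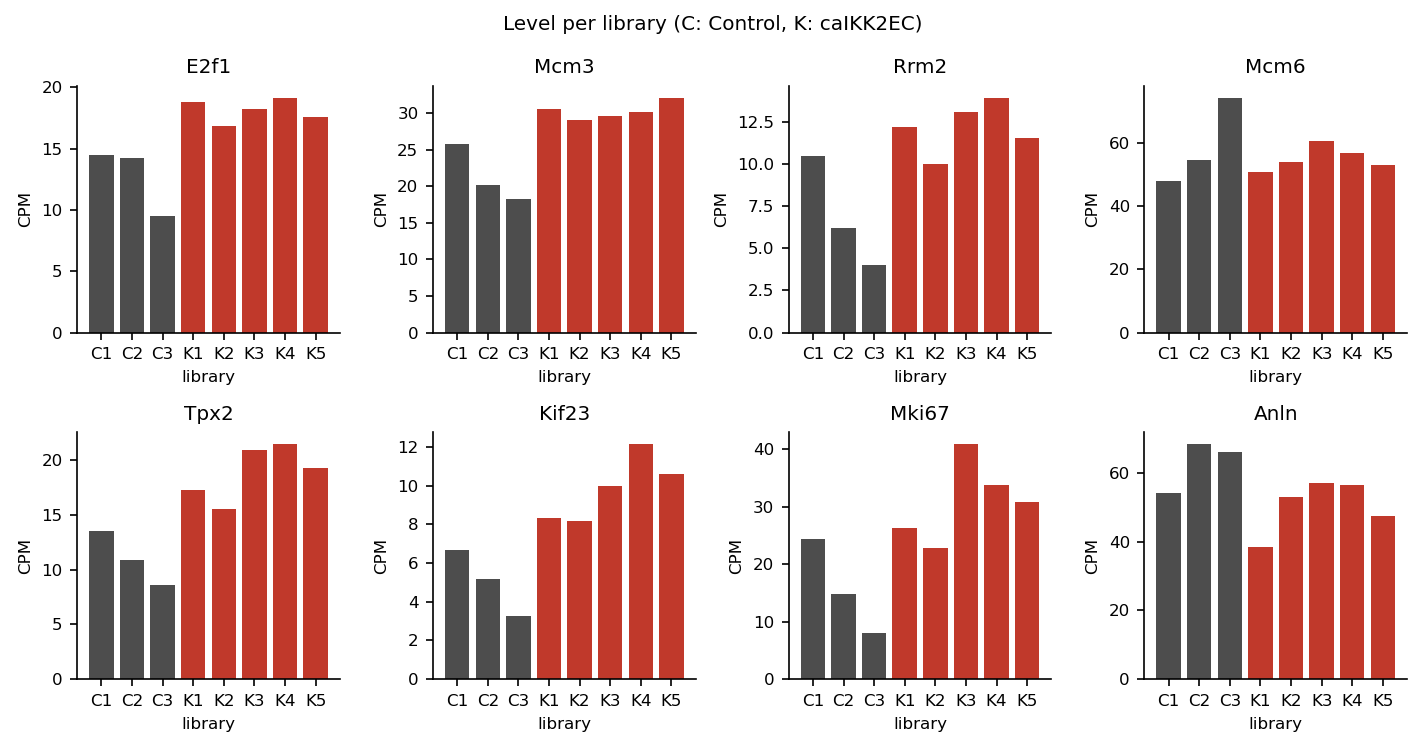
CPM of 8 genes in each library, with bars starting at 0 (C1 to C3 are Control 1 to 3 in grey, K1 to K5 are caIKK2EC 1 to 5 in red). All red bars stand above all grey bars for E2f1, Mcm3, Tpx2 and Kif23, Control 1 reaches the red bars for Rrm2 and Mki67, and Mcm6 and Anln show no such step.

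Kinases and cyclins of mitotic entry had positive log2 fold changes in 8 of 8 genes, from 0.21 (Aurka) to 0.70 (Melk), but in each of the 8 at least 1 Control overlapped the caIKK2EC range. An unadjusted edgeR p under 0.05 was reached by 3 of the 8, and DESeq2 called 0. Ccna2, the cyclin of S and G2 phase, was at 18.5, 11.9 and 10.7 CPM in Control and at 22.3, 15.9, 23.7, 22.6 and 19.7 CPM in caIKK2EC (1.52-fold, log2 fold change 0.60, SE 0.21, edgeR adjusted p = 0.192). Foxm1, the transcription factor of G2 and mitotic genes, was at 10.1, 6.80 and 9.08 CPM in Control and at 11.5, 9.99, 14.3, 12.7 and 12.8 CPM in caIKK2EC (log2 fold change 0.50, SE 0.18, and 0.54 without Control 3). Melk, a kinase gene of dividing cells, was at 3.04, 1.55 and 2.48 CPM in Control and at 4.08, 3.41, 4.996, 3.84 and 2.81 CPM in caIKK2EC. For Foxm1 and Melk the lowest library was Control 2, not Control 3. The mitotic kinase gene Cdk1 and its cyclins Ccnb1 and Ccnb2 depended most on the Controls: their log2 fold changes of 0.59, 0.53 and 0.41 were 0.26, 0.12 and 0.06 without Control 3, and 1.09, 1.39 and 1.13 without Control 1. Ccnb1 rested on few reads, from 13 counts in Control 3 to 97 in Control 1, which was its highest library. Plk1, a kinase of spindle and cytokinesis, was also highest in Control 1, with a log2 fold change of 0.25 that became 0.01 when Control 3 was left out. Aurka, the kinase of the centrosomes, was lowest in Control 2 and had a log2 fold change of 0.21 (SE 0.28).

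All 5 spindle motors and assembly factors had positive log2 fold changes. Of these, 4 had an unadjusted edgeR p under 0.05 and DESeq2 called 2, Tpx2 and Kif2c. Tpx2, which activates Aurora A on the spindle (chr2:152847964-152895321, plus strand, GRCm38), was at 13.6, 10.9 and 8.62 CPM in Control and at 17.2, 15.5, 21.0, 21.5 and 19.3 CPM in caIKK2EC. The groups did not overlap, and the mean was 11.03 ± 2.47 CPM over Controls (SD, n = 3) against 18.9 ± 2.497 CPM over caIKK2EC aortas (SD, n = 5; 1.71-fold, log2 fold change 0.78, SE 0.18, edgeR adjusted p = 0.1097, exact permutation p = 0.0357). It was the only gene of the list that DESeq2 still called without Control 3 (log2 fold change 0.63, DESeq2 adjusted p = 0.0382). EdgeR called it with age as a covariate (adjusted p = 0.0399; 2.77% of all tested genes higher and 1.73% lower) and without caIKK2EC 2 (adjusted p = 0.0496; 1.57% higher), as the only gene of the list in both cases. Kif2c, a motor that takes microtubules apart at the centromere, had the largest log2 fold change of the list, 1.32 (SE 0.44, 2.49-fold, DESeq2 adjusted p = 0.0423). It was at 3.44, 1.74 and 0.872 CPM in Control and at 3.42, 3.50, 6.83, 6.76 and 4.82 CPM in caIKK2EC. Control 1 was thus close to caIKK2EC 1 and 2, caIKK2EC 3 and 4 were high, and only 19 counts stood behind the value of Control 3. Kif11, the motor that pushes the spindle poles apart and whose promoter is printed above, was at 7.74, 6.29 and 3.07 CPM in Control and at 8.12, 8.55, 10.7, 10.3 and 8.89 CPM in caIKK2EC, with no overlap (log2 fold change 0.71, and 0.41 without Control 3). Kif4 and Nusap1 had log2 fold changes of 0.74 and 0.66, and Control 1 lay within the caIKK2EC range for both.

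Kinetochore, checkpoint and chromosomal passenger genes all had positive log2 fold changes, 9 of 9 from 0.32 (Birc5) to 0.93 (Cenpe), and 3 of the 9 had an unadjusted edgeR p under 0.05. Ndc80, the part of the kinetochore that grips microtubules, was at 2.59, 2.66 and 2.02 CPM in Control and at 4.08, 4.38, 4.95, 4.09 and 4.30 CPM in caIKK2EC. This is the one kinetochore gene without overlap, and also the one in which Control 1 stood no higher than Control 2 (1.79-fold, log2 fold change 0.84, SE 0.22, edgeR adjusted p = 0.129, DESeq2 adjusted p = 0.00541). Bub1b, which encodes the checkpoint protein BubR1, was at 8.07, 6.03 and 4.68 CPM in Control and at 8.04, 10.2, 9.39, 11.3 and 10.6 CPM in caIKK2EC (log2 fold change 0.66, SE 0.21). Nuf2, the partner of Ndc80 in the same complex, was at 5.19, 2.81 and 2.61 CPM in Control and at 4.86, 3.88, 8.63, 8.54 and 6.11 CPM in caIKK2EC. Its groups overlapped because Control 1 was above caIKK2EC 1 and 2, unlike for Ndc80. Bub1, a checkpoint kinase gene, rested on 126, 97 and 12 counts in Control 1 to 3, and had a log2 fold change of 0.85 with an SE of 0.51. Ttk and Birc5 were highest in Control 1, and their log2 fold changes of 0.34 and 0.32 were 0.04 and 0.11 without Control 3.

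Of the pair that acts with the anaphase-promoting complex, the ubiquitin ligase that ends mitosis, Ube2c separated the groups and Cdc20 did not. Ube2c, its ubiquitin-conjugating enzyme, was at 7.74, 4.73 and 3.35 CPM in Control and at 8.70, 8.01, 12.4, 10.1 and 7.92 CPM in caIKK2EC (1.78-fold, log2 fold change 0.83, SE 0.28, edgeR adjusted p = 0.191). Cdc20, its activator, was at 10.9, 5.77 and 2.89 CPM in Control and at 9.01, 7.79, 11.7, 9.22 and 8.44 CPM in caIKK2EC. Control 1 was the second highest of the 8 libraries for Cdc20, and the log2 fold change of 0.50 was 0.15 without Control 3.

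Among 6 genes of the spindle midzone and cytokinesis, Kif23 and Kif20a separated the groups, and Anln alone had a negative log2 fold change, with overlapping groups and no call by either tool. Kif23, a motor of the centralspindlin complex that marks the cleavage plane (chr9:61915905-61946774, minus strand, GRCm38), was at 6.67, 5.18 and 3.26 CPM in Control and at 8.31, 8.17, 9.99, 12.1 and 10.6 CPM in caIKK2EC. This was 1.95-fold (log2 fold change 0.96, SE 0.25, edgeR adjusted p = 0.134, DESeq2 adjusted p = 0.00822, exact permutation p = 0.0357), and 0.73 on the log2 scale without Control 3. Racgap1, its partner in that complex, had a log2 fold change of 0.68 (SE 0.31) with Control 1 inside the caIKK2EC range. Kif20a, a midzone motor, was at 9.93, 9.17 and 2.80 CPM in Control and at 9.95, 11.1, 16.7, 14.3 and 14.3 CPM in caIKK2EC. Control 1 and caIKK2EC 1 were nearly level for this gene, so that the groups were just apart. Prc1, which bundles midzone microtubules, was at 16.6, 8.02 and 6.33 CPM in Control and at 16.9, 12.9, 22.8, 20.0 and 17.8 CPM in caIKK2EC (log2 fold change 0.81, SE 0.31). Anln was at 54.3, 68.4 and 66.2 CPM in Control and at 38.5, 53.2, 57.2, 56.6 and 47.6 CPM in caIKK2EC (log2 fold change -0.31, SE 0.15, edgeR adjusted p = 0.306, exact permutation p = 0.107). Per kilobase of exon its Control level (6.94 CPM per kb) was above those of the other 5 cytokinesis genes (0.637 to 1.68). Anln was the only mitotic gene besides Ndc80 in which Control 1 was not the highest Control.

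Mki67, the gene of the Ki-67 protein used to stain dividing cells, was at 24.4, 14.8 and 8.07 CPM in Control and at 26.4, 22.8, 40.9, 33.8 and 30.8 CPM in caIKK2EC. DESeq2 called it higher, with means of 15.8 ± 8.23 CPM over Controls (SD, n = 3) and 30.9 ± 6.99 CPM over caIKK2EC aortas (SD, n = 5; 1.96-fold, log2 fold change 0.97, SE 0.32, edgeR adjusted p = 0.182, DESeq2 adjusted p = 0.0447), although Control 1 was above caIKK2EC 2. Top2a, the topoisomerase that untangles sister chromatids, was at 28.3, 14.5 and 13.5 CPM in Control and at 25.4, 25.4, 37.4, 35.2 and 35.2 CPM in caIKK2EC (1.69-fold, log2 fold change 0.75, SE 0.26, DESeq2 adjusted p = 0.0682). Both markers were highest in caIKK2EC 3 and lowest in Control 3, and their log2 fold changes without Control 3 were 0.66 and 0.57.

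Set against each other as means per library, the 12 S phase genes of the list separated the groups and the 32 mitotic genes did not. The S phase margin was narrow, 3.86 in caIKK2EC 2 against 3.77 in Control 1. The mean log2 CPM over the 12 S phase genes was 3.77, 3.67 and 3.42 in the Controls, in order of number, and 4.09, 3.86, 4.04, 4.06 and 4.04 in the caIKK2EC aortas, so that all caIKK2EC aortas lay above all Controls. Over the 32 mitotic genes it was 3.08, 2.38 and 1.81 in Control and 2.99, 2.93, 3.40, 3.32 and 3.16 in caIKK2EC, with Control 1 above caIKK2EC 1 and 2. The group difference was larger for mitotic genes (0.74, from 2.42 ± 0.64 to 3.16 ± 0.21, SD, n = 3 and 5) than for S phase genes (0.40, from 3.62 ± 0.18 to 4.02 ± 0.09), but so was the spread among Controls. The mitotic mean minus the S phase mean was -0.69, -1.29 and -1.62 in Control and -1.10, -0.93, -0.64, -0.74 and -0.88 in caIKK2EC, which overlap. As medians of the fitted log2 fold changes, mitotic genes were at 0.67 and S phase genes at 0.44, and the difference of 0.23 was 0.12 without Control 3, 0.55 without Control 1 and -0.02 with lane as a covariate. The difference between the phases was not tested.

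**Figure D3:**
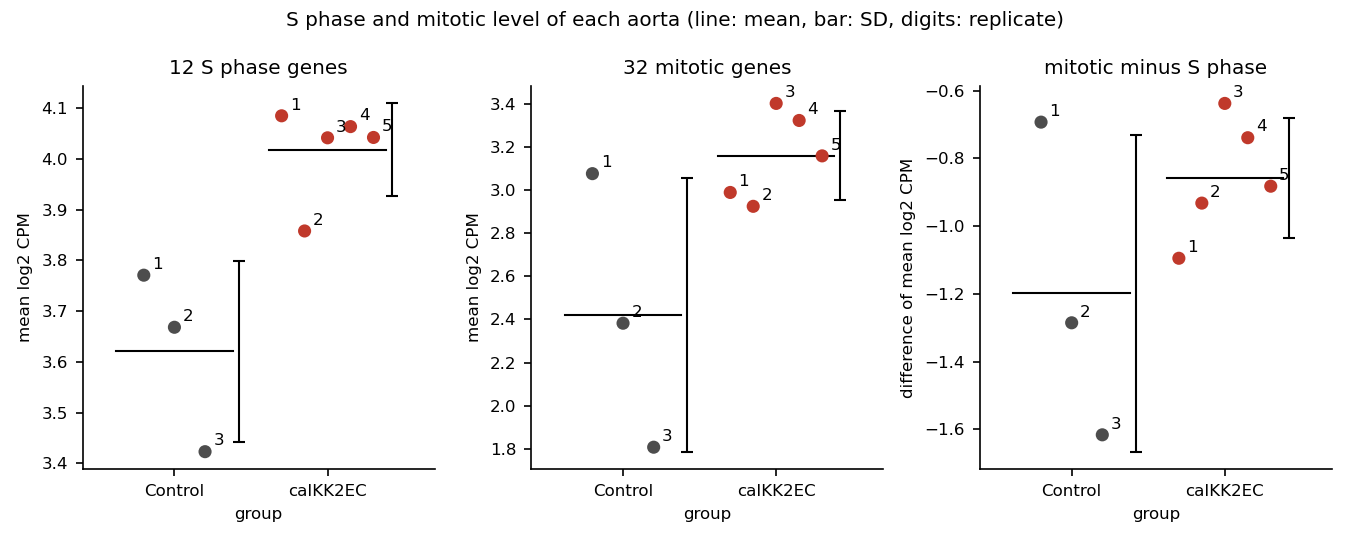
Mean log2 CPM over the 12 S phase genes, over the 32 mitotic genes, and the mitotic minus the S phase mean, with 1 point per aorta (digits give the replicate, grey Control, red caIKK2EC, horizontal lines the group mean, bars the SD). The red points lie above all grey points for S phase genes, whereas Control 1 (3.08) stands among the red points for mitotic genes; axes do not start at 0.

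The 3 Controls were spread more widely in mitotic than in S phase genes. Control 1 was the highest of the 3 Controls for 30 of 32 mitotic and 8 of 12 S phase genes, against 34.6% of all tested genes. Mitotic genes were higher in Control 1 than in Control 2 by a median of 0.74 on the log2 scale, S phase genes by 0.14 and all tested genes by 0.00, and these Controls share sex, age and lane. Control 3 was the lowest of all 8 libraries for 27 of 32 mitotic and 8 of 12 S phase genes, against 28.2% of all tested genes. Among the 26 mitotic genes with overlapping groups, Control 1 was the only Control to overlap in 24. In the caIKK2EC group, caIKK2EC 3 was the highest of the 8 libraries for 18 of 32 mitotic genes and 0 of 12 S phase genes, against 11.2% of all tested genes.

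Leaving out a Control moved the counts in opposite directions. Without Control 3, DESeq2 called 1 of the 44 genes higher (2.37% of all tested genes) in place of 10, edgeR had 12 of 44 at an unadjusted p under 0.05 (7.67%), and the median log2 fold change was 0.37 for the list, 0.32 for S phase and 0.43 for mitotic genes. The same 11 genes were without overlap (9.66% higher and 6.17% lower over all tested genes). Control 3 was the lowest library in each of them, so leaving it out could not make their groups overlap. Without Control 1, DESeq2 called 28 of 44 higher (5.18%), 6 of 12 S phase and 22 of 32 mitotic genes, and 37 were higher without overlap (12.1%). Genes in which Control 1 alone had overlapped separate by definition once it is left out. Of the list 0 were lower by DESeq2 (2.55%), while Anln was lower without overlap (8.18%) and at an unadjusted edgeR p under 0.05 (7.31%). The medians were then 0.93 for the list, 0.57 for S phase and 1.11 for mitotic genes, and edgeR still called 0 genes after adjustment, with 37 of the 44 at an unadjusted p under 0.05 (11%). Within lane 7, caIKK2EC 1 exceeded the Control mean by a median of 0.51 on the log2 scale for S phase and 0.65 for mitotic genes, a comparison with 1 library on one side and no test. The fit with lane as a covariate compares the same libraries, with fitted log2 fold changes in place of means of log2 CPM.

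**Figure D4:**
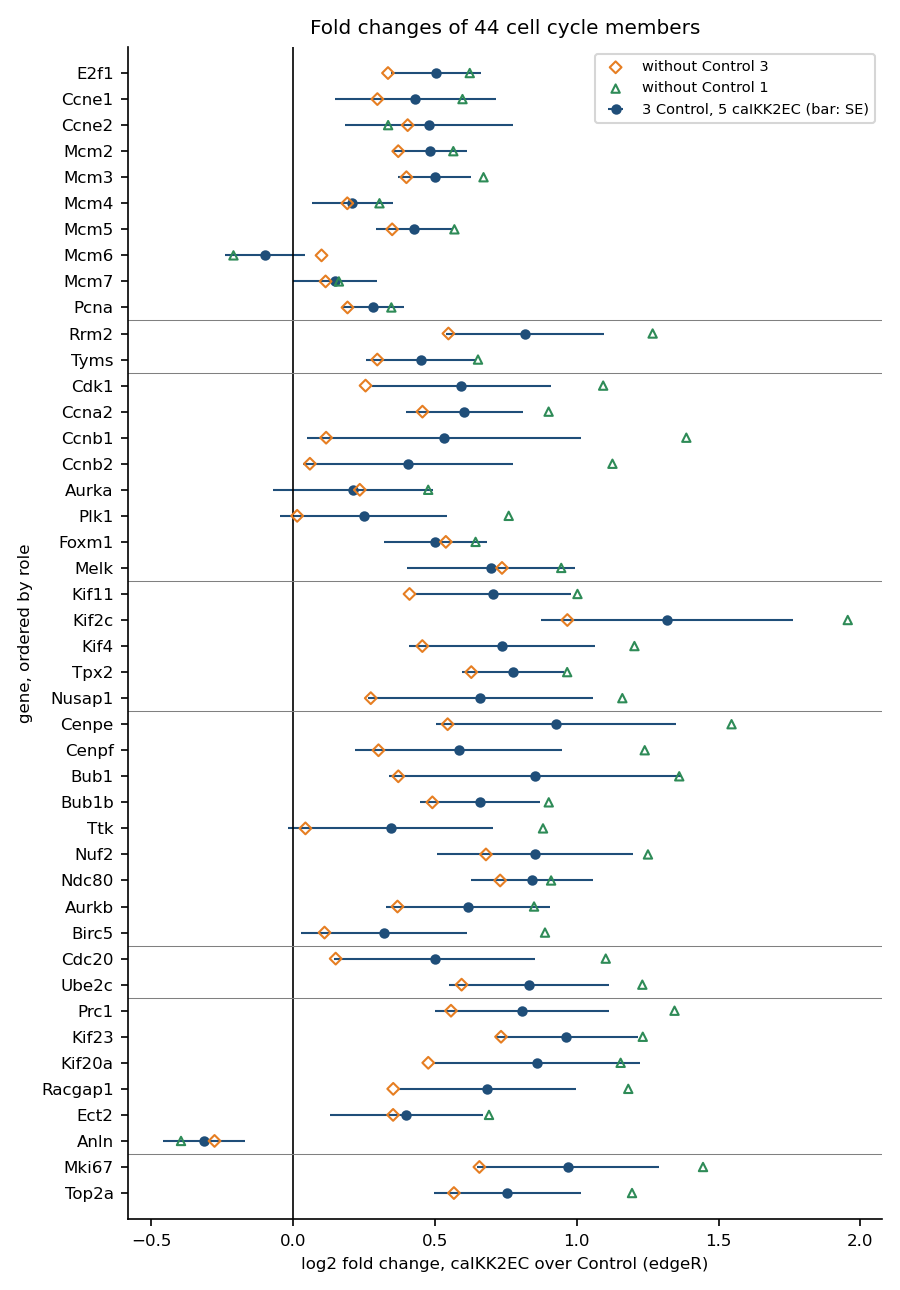
Log2 fold change of caIKK2EC over Control for each of the 44 genes (rows ordered by role), fitted with edgeR on all 8 libraries (blue points, bars are 1 SE) and without Control 3 (orange diamonds) or without Control 1 (green triangles). For most mitotic genes the diamonds lie nearer to 0 and the triangles farther from it, around medians of 0.43 and 1.11, and the 3 symbols lie closer together for S phase genes.

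Summed markers of several cell types also differed between the libraries. The 7 macrophage markers, all with positive log2 fold changes and groups that did not overlap, summed to 5519, 5722 and 1520 CPM in Control 1 to 3 and to 6648 to 9807 CPM in caIKK2EC. Most of this sum was Lyz2 in all libraries but Control 3 (4059, 4399 and 541 CPM in Control). Without it the Controls stood at 1460, 1323 and 979 CPM and caIKK2EC aortas at 1983 to 2379 CPM. The 6 contractile smooth muscle markers, all with negative log2 fold changes, summed to 18126, 21617 and 36299 CPM in Control and to 9897 to 20750 CPM in caIKK2EC. The 4 fibroblast markers summed to 4174, 2850 and 2198 CPM in Control and to 3767 to 5232 CPM in caIKK2EC, with log2 fold changes of 0.98 for Lum, 0.43 for Dcn, 0.02 for Pdgfra and -0.17 for Pi16. Control 3, lowest in mitotic genes, was the lowest Control for 4 of the 7 macrophage markers (Cd68, Csf1r, Lyz2 and C1qa), 3 of the 4 fibroblast markers (not Pdgfra) and 4 of the 5 endothelial markers (not Kdr), and the highest Control for all 6 smooth muscle markers. It was also the lowest Control for 4 of the 6 T cell, 4 of the 5 B cell and 1 of the 4 adipocyte markers. Control 1, above Control 2 in mitotic genes, was also above it for 5 of the 7 macrophage markers (not Cd68 and Lyz2) and 3 of the 4 fibroblast markers (not Pi16). The same held for 5 of the 6 T cell markers, but for only 1 of the 5 endothelial markers. It held for 0 of the 5 B cell, 0 of the 6 smooth muscle and 0 of the 4 adipocyte markers. In the caIKK2EC group, caIKK2EC 3 had the highest mitotic level and macrophage sum and the lowest fibroblast sum. These marker ranks depended on 1 gene each. Without Lyz2 the macrophage sum was highest in caIKK2EC 5 (2379 CPM, against 2323 CPM in caIKK2EC 3). Without Dcn, the most abundant fibroblast marker, the fibroblast sum was lowest in caIKK2EC 1 (1820 CPM, against 1913 CPM in caIKK2EC 3). The 4 adipocyte markers, all with negative log2 fold changes, summed to 2125, 2747 and 2073 CPM in Control. In caIKK2EC they ranged from 530 CPM (caIKK2EC 2) to 4815 CPM (caIKK2EC 1, the only caIKK2EC library on lane 7). B cell markers summed to 6.30, 11.9 and 3.85 CPM in Control and to 2.95 to 10.7 CPM in caIKK2EC. T cell markers were low throughout, at 21.6, 12.2 and 6.33 CPM in Control and 11.2 to 18.2 CPM in caIKK2EC. The 6 markers of red cell and marrow precursors summed to at most 0.598 CPM in any library, with Hba-a1 and Hbb-bs at 0 counts in all 8. The part of cell composition in the cell cycle levels was not tested.

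**Figure D5:**
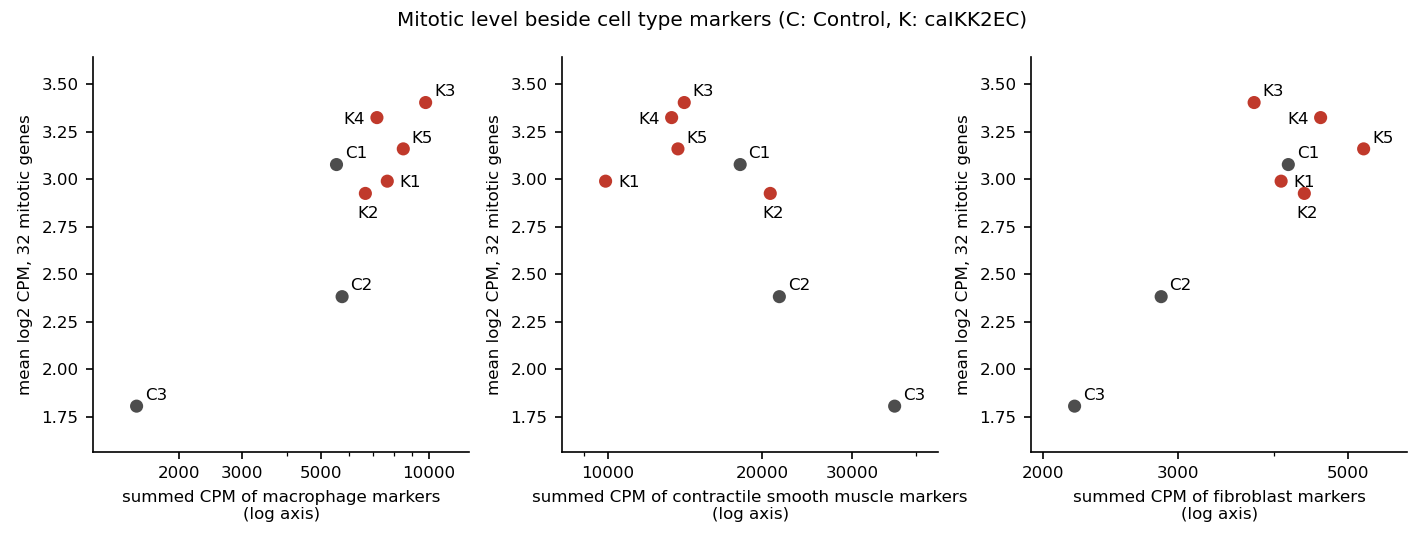
Mean log2 CPM of the 32 mitotic genes (vertical axis) against the summed CPM of macrophage, contractile smooth muscle and fibroblast markers (log axes), with 1 point per aorta (C1 to C3 Control, K1 to K5 caIKK2EC). Control 3 sits at the low mitotic end with 1520 CPM of macrophage and 36299 CPM of smooth muscle markers. K3 sits at the high end with the highest macrophage and the lowest fibroblast sum of the K libraries. The macrophage sum is mostly Lyz2 except in C3, and without Lyz2 it is highest in K5. Without Dcn the fibroblast sum of the K libraries is lowest in K1.

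Other genes of the same phases, from longer textbook lists, also had positive log2 fold changes for the most part. Of 59 further mitotic genes tested, 55 had a positive log2 fold change with a median of 0.54, 24 were higher (40.7%, against 9.66% of all tested genes) and 2 lower (3.39%, against 7.47%) at an unadjusted edgeR p under 0.05, and DESeq2 called 9 higher (15.3%, against 4.49%) and 0 lower. The 9 called higher by DESeq2 were Cenpn, Cdca8, Incenp, Ckap2, Dlgap5, Gtse1, Ncapg, Mybl2 and Cep55. Their log2 fold changes ran from 0.51 (Incenp) to 1.21 (Dlgap5). The 2 lower at an unadjusted edgeR p were Cenpw, a centromere gene (log2 fold change -0.84), and Pttg1, which encodes securin (-0.34). The 2 most abundant, Bub3 (74.7 ± 12.3 and 68.1 ± 3.66 CPM, SD, n = 3 and 5) and Smc4 (53.5 ± 20.4 and 67.0 ± 6.27 CPM), had log2 fold changes of -0.13 and 0.32. Of 43 further S phase genes, 37 had a positive log2 fold change with a median of 0.28, 5 were higher and 0 lower at an unadjusted edgeR p, and DESeq2 called 3 higher, Cdt1, Mcm10 and Chaf1b. The shares of 11.6% and 6.98% higher were near those of all tested genes (9.66% and 4.49%). Single genes of these 43 mostly did not separate the groups. Only Cdt1, Mcm10, Fen1, Chaf1b and E2f2 were higher without overlap, against 7.01% of all tested genes, and the rest overlapped. Cdt1, which loads the MCM helicase, was at 9.70, 9.17 and 6.38 CPM in Control and at 16.8, 15.5, 14.4, 15.6 and 15.1 CPM in caIKK2EC (1.84-fold, log2 fold change 0.88, SE 0.17, edgeR adjusted p = 0.107), and was named for this DESeq2 call after its values were seen. The most abundant of these, Rpa1 and Rfc1, had log2 fold changes of -0.05 and 0.26. Without Control 3 DESeq2 called 3 of the 59 (5.08%) and 1 of the 43 (2.33%), against 2.37% of all tested genes.

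Lists of genes that act upstream of these phases had medians nearer to 0. Among 26 tested D-type cyclins, interphase CDKs, pocket proteins and their regulators the median log2 fold change was 0.10, with 5 higher (19.2%, against 9.66% of all tested genes) and 1 lower at an unadjusted edgeR p, and DESeq2 called 1, E2f3 (log2 fold change 0.48; 3.85%, against 4.49%). The most abundant, Ccnd2 and Ccnd3, had log2 fold changes of -0.44 and -0.31, and of -0.05 and -0.11 without Control 3. Among 20 CDK inhibitors and p53 arrest genes the median was 0.18, 1 was higher (5%, against 9.66%) and 0 lower at an unadjusted edgeR p, and DESeq2 called 0. That gene was Cdkn1a, which encodes the CDK inhibitor p21, at 106 ± 28.9 CPM over Controls and 149 ± 24.6 CPM over caIKK2EC aortas (SD, n = 3 and 5; log2 fold change 0.50, and 0.30 without Control 3), while Btg2 was at 196 ± 54.0 and 150 ± 47.0 CPM.

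Exons of 12 of the 44 genes overlap another gene in GENCODE, among them Ccna2 with Exosc9, Kif4 with Pdzd11, Prc1 with Rccd1, Ube2c with Tnnc2 and Kif20a with Cdc23, and 5 genes (Pcna, Tyms, Ccnb1, Ccnb2 and Kif4) have a pseudogene of their name. The overlaps named lie on opposite strands. Foxm1 and Top2a, and Mcm7 with Mir25 and Mir93, overlap on the same strand. Whether the authors' counting used the strand was not given in the sources used here. A strand setting would not resolve the overlaps on the same strand or the pseudogenes. How shared reads were counted was not given either. The values of these genes are uncertain to that extent.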

How the data were processed

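Poly(A) RNA of whole aortas was sequenced from directional libraries as single reads, per the labels. The authors deposited raw counts per gene symbol, and per the submitters' processing notes they used FastQC 0.11.5, STAR 2.7.0e, DESeq2 1.22.2 and GRCm38 (mm10). The counting program, the annotation and the strand setting were not given in the sources used here. The authors' deposited comparison table gives a log2 fold change with its SE and an adjusted p-value per gene. The count table held 0 columns of other samples. No pair of libraries agreed within sampling noise (lowest chi-square per degree of freedom 17.5, caIKK2EC 4 and 5).

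EdgeR 4.0.16, run in R 4.3.3 with limma 3.58.1, fitted the counts with TMM, the default filter by group, a robust quasi-likelihood fit on group, and Benjamini-Hochberg adjustment at 0.05 over all genes tested. DESeq2 1.42.0, other scalings and filters, covariates, and leaving out each library were alternatives. The exact two-sided permutation tests ran over all 56 arrangements on log2(CPM + 0.5), and log2 CPM used a prior count of 2. All genes of the list may be named. Values in every library are given for up to 3 genes of each role with the smallest edgeR p, for Mki67, Top2a, Pcna and Mcm2, for the lowest and highest log2 fold change, and, chosen after values were seen, for Mcm6. From other lists the 2 most abundant were named where none passed, and DESeq2 calls were added after they were seen. The genes and lists were chosen with earlier results of these data known. Procedures were tested on simulated data. Coordinates come from GENCODE M21 and sequences from RefSeq, both GRCm38.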

Additional observations from a re-analysis of the deposited data

Results flagged for a closer look

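A value was marked where the highest or lowest of the 5 caIKK2EC libraries stood apart from the rest by a gap of more than 0.71 of the range of the group, and 47 values were looked at. Chance marks about 5% of such groups. Ccnb2, the cyclin B2 gene, was at 6.33 CPM in caIKK2EC 1 and at 8.22 to 8.77 CPM in the other 4, a gap of 0.801 of the range on the log2 scale. The mean log2 CPM of the 12 S phase genes was 3.86 in caIKK2EC 2 and 4.04 to 4.09 in the other 4, a gap of 0.809 of the range, and it was still above the highest Control (3.77).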

How the results depend on the processing

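The median log2 fold change was positive in every setting run, for the list, for S phase and for mitotic genes. Leaving out each library in turn gave 0.37 to 0.93 for the list, 0.32 to 0.57 for S phase genes and 0.43 to 1.11 for mitotic genes, with the highest values without Control 1 and the lowest without Control 3, and 0.12 to 0.55 for mitotic minus S phase genes. That difference was -0.016 with lane as a covariate, a fit in which only caIKK2EC 1 is compared with the 3 Controls. The count of calls depended on the tool. DESeq2 called 875 genes and 10 of the list, 390 and 1 without Control 3, and 1147 and 28 without Control 1. With edgeR, age as a covariate gave 661 genes and 1 of the list (Tpx2), and leaving out each library gave 0 to 359 genes and 0 to 1 of the list, both highest without caIKK2EC 2 (Tpx2, edgeR adjusted p = 0.0496). Of 745 pairs of gene and setting, 727 had the same sign and side of the threshold, whatever their size, 12 newly passed and 6 turned sign, and none could lose a call since edgeR called 0 of the 44: Mcm6 to 0.10 without Control 3 and with sex as a covariate, Aurka to -0.0038 without Control 2 and -0.025 with lane, Ccnb1 to -0.0075 and Ect2 to -0.012 with lane. Control 3 is the only male, so sex as a covariate takes that library out of the group difference and nearly repeats the setting without it. Leaving out libraries gave -0.21 to 0.10 for Mcm6 and -0.0038 to 0.48 for Aurka. The cause was not tested. With the replicate number as a block, which left 2 residual degrees of freedom, edgeR called 0 genes, with medians of 0.64 for the list, 0.43 for S phase and 0.71 for mitotic genes and 0.28 for the difference. Deviations of libraries with the same number correlated at 0.335, 0.0989 and 0.0968. Control 1 and Control 2 correlated best with the library of their own number, and Control 3 with caIKK2EC 4 (0.180). These correlations cannot settle whether libraries were paired, and the block is by number only. Low counts limit Bub1, Ccnb1 and Kif2c, at 12, 13 and 19 reads in Control 3.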
